A study of Homo sapiens with 12 samples.

Results

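Tryptophan breakdown through kynurenine was followed in MDA-MB-453 cells by 10 genes: TDO2, IDO1, AFMID, KMO, KYNU, HAAO, QPRT, DDC, TPH1 and AHR. They were taken by symbol from a table of 60670 genes, and 7 of the 10 (all but IDO1, HAAO and TPH1) had enough counts to be among the 16355 genes tested. The genes were picked with their response to androgen already known, above all the falls of TDO2 and KMO and the rise of DDC. Their differences between the groups are therefore a description: no p-value is given for them, whether a member passed the threshold over all genes only describes it, and neither supports a claim about the pathway.

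MDA-MB-453 is an established human breast cancer line. Both groups were the same unmodified line, kept 72 h in DMEM (high glucose, 10% FBS). The 6 Vehicle libraries received 0.001% ethanol and the 6 DHT libraries 10 nM dihydrotestosterone (DHT), a potent natural androgen, each for 6 h. The labels call the 6 libraries of a condition independent replicates from successive passages of the 1 line, so the p-values below measure the spread between passages and not between patients or lines. The labels name both a poly-A assay and a total RNA kit, and which applies was not settled.

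Tryptophan has a few main fates in human cells. The dioxygenases TDO2 and IDO1 open its indole ring, and the formamidase AFMID then releases kynurenine. KMO hydroxylates kynurenine, KYNU and HAAO carry the product towards quinolinate, and QPRT turns quinolinate into a precursor of NAD. In the other branch TPH1 hydroxylates tryptophan and DDC decarboxylates the product to serotonin, DDC also making dopamine from L-DOPA. Kynurenine is a ligand of AHR, a transcription factor that switches on detoxifying enzymes such as CYP1A1. TDO2 is best known as a liver enzyme and IDO1 as an interferon-induced enzyme of immune cells.

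Vehicle replicate 6 was the shallowest library, with a total of 4345939, and DHT replicate 2 the deepest, with 25678380. Levels are given as CPM, counts scaled to TMM-adjusted library totals, and a single count was worth 0.0456 to 0.214 CPM. The label of the line was checked first. The 8 markers of luminal breast cancer lines summed to 4099 to 7547 CPM in the Vehicle libraries and to 2763 to 4271 CPM in the DHT libraries, and 3 of the 8 fell (edgeR, adjusted p under 0.05). ESR1 and PGR together reached at most 0.876 CPM in any library. CD1C and CLEC9A, markers of dendritic cells that can make IDO1, were at 0 throughout, LAMP3 had 0.58 of a count in all, FLT3 reached at most 1.54 CPM, and the 6 leukocyte and macrophage markers summed to at most 0.855 CPM. The liver gene ALB was present (26.8 ± 15.0 CPM in Vehicle, 14.97 ± 9.56 CPM in DHT), but TTR had 6 and 2 counts and APOA1 4 and 3 counts over the Vehicle and DHT groups. The 6 fibroblast markers, mostly COL1A1, summed to 76.4 to 110.4 CPM with vehicle and 59.9 to 75.8 CPM with DHT, with 0 of 3 tested members called. Those tested, COL1A1, COL1A2 and COL3A1, were each lower at an unadjusted p under 0.05 (log2 fold change -0.36, -1.10 and -1.17 by edgeR). The 4 basal markers summed to 8.97 to 13.9 CPM in the Vehicle libraries and to 1.75 to 2.23 CPM in the DHT libraries. The 1 of them tested, TP63, a transcription factor of basal epithelial cells, fell without overlap of the groups (log2 fold change -2.58, SE 0.18, adjusted p = 2.41e-06 by edgeR). The part of these markers in the results below was not tested. Bulk values cannot tell fewer expressing cells from less RNA per cell. Both replicate 2 libraries stood apart: their deviations from the group means had a correlation of 0.87 across genes, and the values of the members in them are given below.

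The 3 tested members with the largest fold changes lie on different chromosomes. TDO2 (ENSG00000151790) spans 155854738 to 155920406 on the forward strand of chromosome 4, and KMO (ENSG00000117009) spans 241532134 to 241595642 on the forward strand of chromosome 1. DDC (ENSG00000132437) spans 50458436 to 50565405 on the reverse strand of chromosome 7, all on GRCh38 in the counts table. The 250 bases before a RefSeq start of each (GRCh38.p14) are shown because TDO2 and KMO were lower together and DDC was higher. They are written 5′ to 3′ on the strand of the gene, with capitals for matches on either strand to AGAACA (a half-site of steroid response elements), TGTTTAC (a FOXA core), GCGTG (the core bound by AHR) or TATAAA (the TATA box).
TDO2, chr4:155903446-155903695: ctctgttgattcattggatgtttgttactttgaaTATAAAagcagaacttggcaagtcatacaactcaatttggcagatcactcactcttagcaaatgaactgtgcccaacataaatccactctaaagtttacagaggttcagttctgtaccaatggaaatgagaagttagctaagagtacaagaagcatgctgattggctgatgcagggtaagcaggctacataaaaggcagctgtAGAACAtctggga
KMO, chr1:241532128-241532377: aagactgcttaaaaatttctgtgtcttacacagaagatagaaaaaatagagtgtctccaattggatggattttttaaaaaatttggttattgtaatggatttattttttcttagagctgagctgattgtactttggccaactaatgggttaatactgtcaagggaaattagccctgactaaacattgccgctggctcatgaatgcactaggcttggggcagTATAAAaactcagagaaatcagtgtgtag
DDC, chr7:50565406-50565655: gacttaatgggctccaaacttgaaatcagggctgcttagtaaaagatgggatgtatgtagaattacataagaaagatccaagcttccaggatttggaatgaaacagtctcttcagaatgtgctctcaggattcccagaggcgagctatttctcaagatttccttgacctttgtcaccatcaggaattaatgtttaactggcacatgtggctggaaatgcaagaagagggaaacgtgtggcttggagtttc

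The TDO2 window held 1 half-site, from 13 to 8 bases before the start, and a TATA box letter match from 216 to 211 bases before it. The KMO window held 1 TATAAA, from 29 to 24 bases before the start, and the DDC window held none of the motifs. Another RefSeq window of DDC, chr7:50561072-50561321, is not shown and also held none. Among 35116 windows of the same length the half-site occurred in 12.4%, GCGTG in 32.2%, TGTTTAC in 2.98% and TATAAA in 10.7%. The full response element, this half-site and its inverted repeat with any 3 bases between them, was in 1 of them and in none of the members' windows. These are matches of letters and show no binding. RefSeq starts TDO2 at 155903696, inside the longer span of the counts table, so the window is not the only possible start region.

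Levels were first ranked within the Vehicle libraries, on a scale per length (TPM, over the exon bases of each gene). TDO2 stood first at 96.7 ± 44.7 TPM (SD, n = 6 Vehicle libraries), with a range of 25.2 to 153. KMO followed at 38.1 ± 7.90 TPM, QPRT at 19.4 ± 7.59 TPM and AFMID at 11.4 ± 3.81 TPM. Each of these overlapped in range with the next. Within single Vehicle libraries TDO2 was above KMO in 6 of 6, KMO above QPRT in 5 of 6 and QPRT above AFMID in 5 of 6. AHR at 1.99 ± 0.811 TPM and DDC at 1.84 ± 0.550 TPM lay below the whole range of AFMID and overlapped each other. KYNU was lower than all of these, at 0.189 ± 0.0843 TPM. TPH1 reached at most 0.148 TPM, and IDO1 and HAAO had 0 counts in all Vehicle libraries. The entry enzyme TDO2 and the hydroxylase KMO were thus well transcribed. Of the enzymes directly after KMO, HAAO had no Vehicle counts, and KYNU was low but measured in all 6 Vehicle libraries (mean 1.09 CPM). The TPM of KYNU depends on its long exon total, 17442 bases against 5264 for TDO2. The authors' deposited table gives no other length for KYNU. With the average transcript lengths of the authors' deposited table, AFMID came before QPRT (25.3 and 22.5 TPM), TDO2 and KMO kept the first places at 208 and 62.7 TPM, and the levels of TDO2, AFMID and KMO were over 1.5 times higher. These TPM were scaled over only the genes of that table, so the higher levels cannot be put down to length alone.

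**Figure D1:**
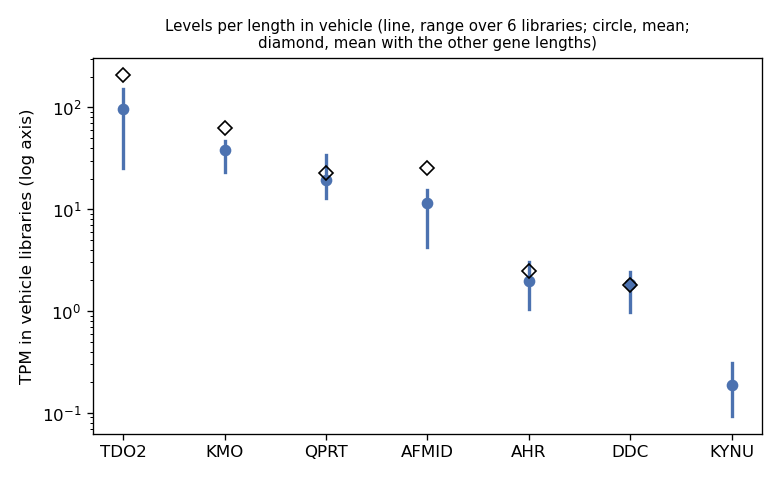
Level per length of 7 members in Vehicle libraries, on a log axis in TPM. Lines span the lowest to the highest of 6 libraries and circles are means. Diamonds are means with the authors' average transcript lengths, scaled over only the genes of their deposited table. TDO2 was highest at 96.7 TPM and KYNU lowest at 0.189 TPM; TPH1, IDO1 and HAAO, with libraries at 0, are not drawn.

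The ring-opening step differed between the 2 dioxygenases. TDO2 ran from 61.2 through a median of 169 to 282 CPM in Vehicle libraries and from 25.8 through 52.4 to 80.95 CPM with DHT. The groups overlapped through replicate 2: Vehicle replicate 2 (61.2 CPM) lay below some DHT libraries, whereas the other Vehicle libraries began at 110.8 CPM. Replicate 2 was also the lowest DHT library (25.8 CPM). The replicate numbers had the same order by TDO2 level in both groups. Each DHT library was below the Vehicle library of its number, though whether the numbers pair the samples was not settled. With the replicate block the log2 fold change was -1.66. The log2 fold change of TDO2 was -1.70 (SE 0.36), a level 3.25-fold lower with DHT. Its spread was wide in both groups, with a coefficient of variation of 47.0% in Vehicle and 42.6% in DHT libraries. The authors' deposited table gives TDO2 a log2 fold change of -1.63.

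IDO1 (chromosome 8, 39902275 to 39928790 on GRCh38), which opens the same ring as TDO2, had 0 counts in all 12 libraries. A count of 0 allows up to 0.0393 CPM over the Vehicle group and 0.0340 CPM over the DHT group (3 counts per group, counting error only). IDO2, its paralogue, had 1 count in all Vehicle libraries and 0.75 in all DHT libraries. TDO2 was thus the only one of these 3 ring-opening dioxygenases with more than 1 count in a group. Among genes that carry the interferon gamma signal to IDO1 in other cells, 7 of 8 were tested and 0 were called by edgeR, DESeq2 or limma-voom, with 0 at an unadjusted p under 0.05. JAK1 stood at 69.6 ± 16.8 CPM in Vehicle libraries and IRF1 at 3.31 ± 0.680 CPM.

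AFMID, the formamidase after TDO2, ran from 8.01 through 15.8 to 21.7 CPM with vehicle and from 13.6 through 15.9 to 21.4 CPM with DHT. The groups covered nearly the same range, with Vehicle replicate 2 lowest. The log2 fold change was 0.09 (SE 0.21), and its sign changed between alternatives (from -0.04 to 0.22).

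KMO, the flavin enzyme of the outer mitochondrial membrane, ran from 63.3 through 70.9 to 111 CPM in Vehicle libraries. In DHT libraries it ran from 20.95 through 25.5 to 35.8 CPM. Every DHT library was below every Vehicle library, replicate 2 included (63.3 and 24.3 CPM). The log2 fold change was -1.55 (SE 0.16), a level 2.92-fold lower. Exons of OPN3, the opposite-strand gene of an opsin, cover 28.4% of the exon bases of KMO, and no source used here states whether counting used the strand. OPN3 itself had only 5.65 ± 0.749 CPM with vehicle and 5.98 ± 1.45 CPM with DHT (log2 fold change 0.08, adjusted p = 0.940 by edgeR).

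KYNU, which cleaves the product of KMO, was thinly covered. It ran from 0.590 through 1.16 to 1.56 CPM with vehicle and from 0.298 through 0.769 to 1.04 CPM with DHT, with 83.5 and 64.5 counts over the groups. The groups overlapped, and the log2 fold change of -0.62 (SE 0.32) did not pass. HAAO, the next enzyme, had 0 counts in the Vehicle group and 17 in the DHT group, spread over 5 of 6 DHT libraries at up to 0.350 CPM. Scaled for library totals, the DHT counts of HAAO were 4.89 times a floor of 3 counts over the Vehicle group. The counting error of the 17 DHT counts is not in this ratio, so it is not a lower bound. The level of HAAO stayed far under 1 CPM, and HAAO did not reach the filter for testing.

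QPRT, the last step towards NAD, ran from 14.5 through 21.8 to 57.5 CPM with vehicle and from 13.6 through 19.6 to 47.4 CPM with DHT. Replicate 2 was the highest library of both groups. Without both replicate 2 libraries the range was 14.5 to 22.5 CPM with vehicle and 13.6 to 22.0 CPM with DHT. The log2 fold change of QPRT was -0.18 (SE 0.36), -0.13 without both replicate 2 libraries, 0.22 without Vehicle replicate 2 and -0.53 without DHT replicate 2.

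In the amine branch DDC moved opposite to TDO2 and KMO. DDC ran from 1.33 through 1.86 to 2.82 CPM with vehicle and from 4.56 through 5.74 to 6.35 CPM with DHT. Every DHT library was above every Vehicle library, and the closest pair was replicate 2 (2.82 and 4.56 CPM). The log2 fold change of DDC was 1.55 (SE 0.19), 2.93-fold higher. DDC rested on 146 Vehicle and 487 DHT counts, and its opposite-strand neighbour DDC-AS1 had 0 and 3 counts. TPH1, the tryptophan hydroxylase that supplies DDC on the way to serotonin, had 8.5 and 16.2 counts over the groups, at most 0.399 CPM in any library. The ratio of its rounded counts, DHT over Vehicle and scaled for library totals, was 1.73 with a 95% counting interval of 0.697 to 4.66, so a difference was not detectable at this depth. TPH2, the other hydroxylase, had 0 and 1 counts.

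AHR, the receptor for kynurenine, ran from 3.86 through 5.12 to 6.84 CPM with vehicle and from 4.20 through 4.49 to 6.95 CPM with DHT. The groups shared nearly the whole range, and the log2 fold change was 0.00 (SE 0.19). An unnamed transcript on the same strand covers 29.5% of the exon bases of AHR and had 0 counts. How reads in shared bases were counted is not stated, so these 0 counts do not show that the level of AHR was unaffected.

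Of the 7 tested members, TDO2 and KMO passed the threshold downward, DDC passed upward, and AFMID, KYNU, QPRT and AHR did not pass (edgeR, adjusted p under 0.05 over all genes). Over all genes 2.84% were called, 1.96% upward and 0.880% downward, and 1.19% at an adjusted p under 0.01, where KMO and DDC passed and TDO2 did not. As these members were chosen from this comparison, nothing is read from their count. TDO2 did not pass without DHT replicate 4 (log2 fold change -1.60) or without DHT replicate 6 (-1.64). KMO and DDC lay outside the range of the other group, which was so for 3.27% of all tested genes (2.28% with all DHT libraries above and 0.991% with all below). The authors' deposited table marks TDO2, KMO and DDC as changed, with log2 fold changes of -1.63, -1.56 and 1.45, among 4.25% of its genes. It gives AFMID 0.21, QPRT -0.12 and AHR -0.09, unmarked.

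**Figure D2:**
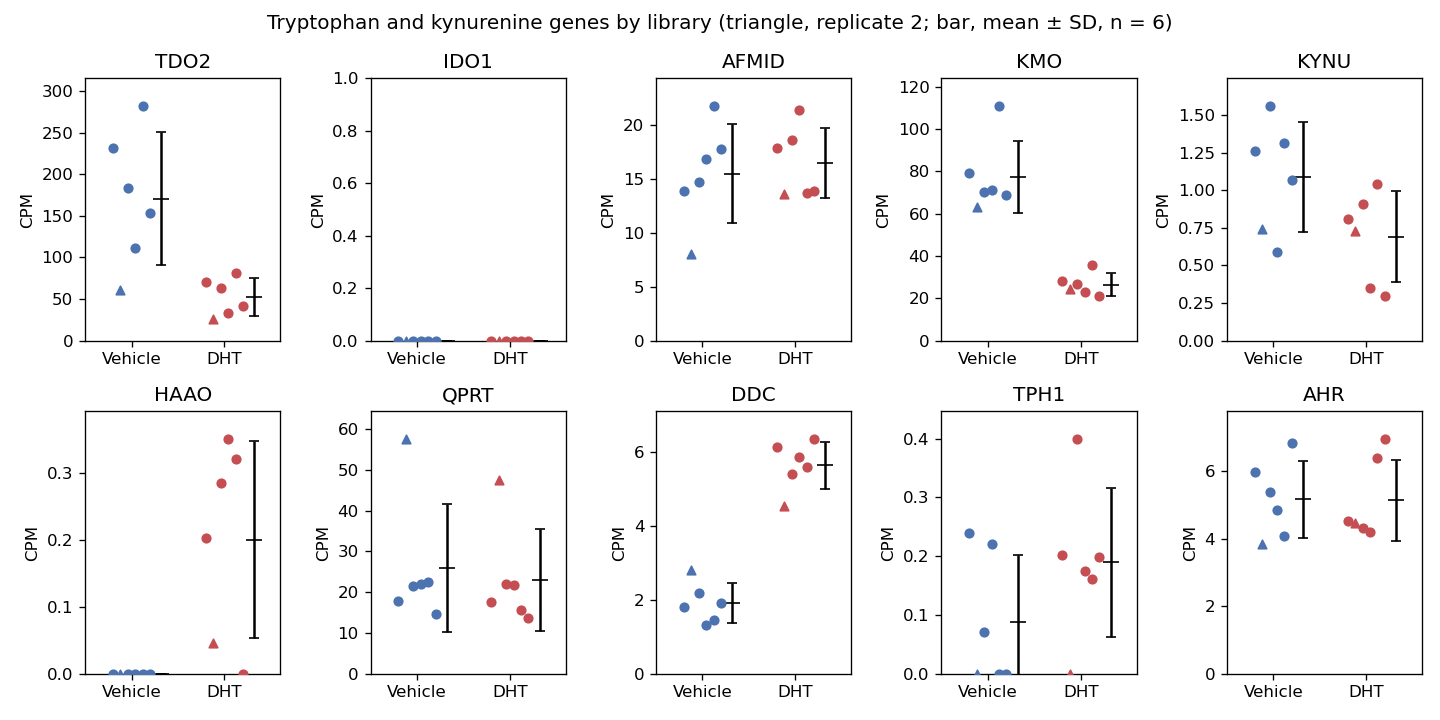
CPM of each member (vertical axis, linear from 0) in the 6 Vehicle and 6 DHT libraries; triangles are replicate 2 and bars are means ± SD. KMO and DDC do not overlap between groups, TDO2 overlaps through Vehicle replicate 2 (61.2 CPM), QPRT is highest in replicate 2, and IDO1 is at 0 throughout.

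Within each group TDO2 and KMO tended to be high and low in the same libraries, a variation that the choice of members did not use. Vehicle replicate 5 was the highest Vehicle library for both (282 and 111 CPM), and DHT replicate 5 the highest DHT library for both (80.95 and 35.8 CPM). On log2 CPM, Pearson's r was 0.77 in Vehicle (exact two-sided permutation p = 0.0847, adjusted over 2 groups 0.0847) and 0.76 in DHT libraries (exact permutation p = 0.0625, adjusted 0.0847). Spearman's rho was 0.83 in Vehicle (exact permutation p = 0.0583, adjusted 0.103) and 0.77 in DHT libraries (exact permutation p = 0.103, adjusted 0.103), so neither measure passed in either group. Without the 2 libraries farthest from the median of TDO2, replicates 2 and 5 in each group, r was 0.64 in Vehicle and 0.84 in DHT libraries over the 4 left.

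**Figure D3:**
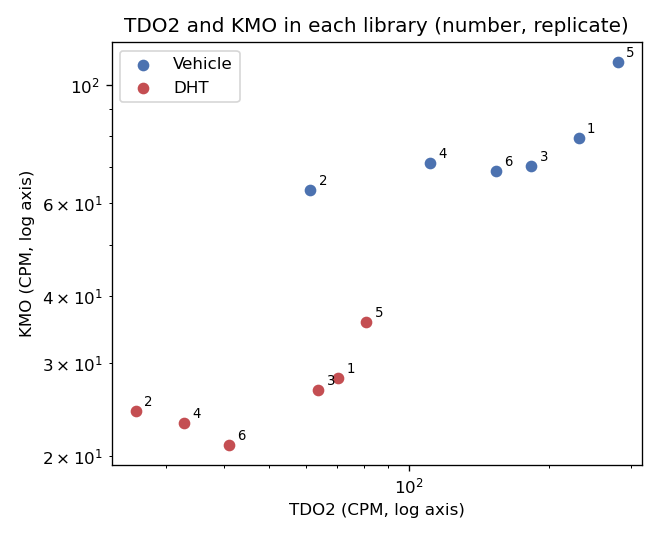
TDO2 (horizontal) against KMO (vertical) in CPM on log axes, 1 point per library with its replicate number. The DHT points lie below all Vehicle points in KMO, and replicate 5 is highest for both genes in either group, at 282 and 111 CPM in Vehicle.

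Genes beside TDO2 and KMO were read for a comparison by position. CTSO, a cathepsin protease gene that lies 3712 bases after TDO2 on the opposite strand (chromosome 4, 155924118 to 155953866), fell with DHT, with means of 16.6 ± 2.76 and 9.96 ± 2.02 CPM (SD, n = 6 each; log2 fold change -0.73, SE 0.16, adjusted p = 0.0265 by edgeR), with no overlap of the groups. GUCY1B1, a guanylate cyclase subunit gene on the other side of TDO2, did not pass (30.1 ± 3.84 and 28.6 ± 1.87 CPM, log2 fold change -0.07). Around KMO the fumarase gene FH (log2 fold change -0.07) and CHML (0.07) did not pass, at 253 ± 57.1 and 79.9 ± 25.4 CPM in Vehicle libraries.

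The genes with the pattern most like TDO2 over the 12 libraries were RABL3, DUSP6, C4orf19, RIT1 and OSGIN2, with Pearson's r from 0.96 to 0.91 on log2 CPM among 14376 genes. On deviations from the group means r was 0.93 for RABL3, 0.90 for DUSP6, 0.77 for C4orf19, 0.82 for RIT1 and 0.85 for OSGIN2. The genes were picked by r over these same libraries, so a high r inside the groups comes partly from the choice. DUSP6, a phosphatase that restrains ERK, stood at 200.3 ± 37.9 CPM with vehicle and 134 ± 33.4 CPM with DHT and did not pass (log2 fold change -0.58, adjusted p = 0.129 by edgeR). RABL3 and RIT1 did not pass either. C4orf19 (-0.72, adjusted p = 0.0220 by edgeR) and OSGIN2 (-0.83, adjusted p = 6.92e-04 by edgeR) fell. The choice by r over both groups favours such falls. Those most like KMO were B3GNT5, PPP4R1L, OSGIN2, EGLN3 and ID2, with r from 0.97 to 0.94. Each of them fell with DHT (edgeR, adjusted p under 0.05), which the same choice favours. Inside the groups r fell to between 0.45 (OSGIN2) and 0.73 (PPP4R1L), so more of their likeness to KMO lay in the difference between groups. These are descriptions over points that share libraries and depth.

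The rest of tryptophan metabolism was read from 10 lists of 86 genes that are not members, 56 of which were tested. In all 4 rose, 0 fell and 52 did not pass, beside 2.84% of all genes called. Before adjustment, at p under 0.05, 5 leaned upward and 2 downward. The median log2 fold change of the 56 was 0.02, beside -0.05 over all genes. DESeq2 and limma-voom also lowered 0 of them.

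The enzymes that draw kynurenine to other products were measured without a call. Of 9 such genes, including glutarate enzymes, 5 were tested, 0 were called by edgeR, DESeq2 or limma-voom and 0 differed at an unadjusted p under 0.05 (median log2 fold change 0.04). KYAT3, a transaminase that makes kynurenic acid, stood at 25.9 ± 9.22 CPM with vehicle and 23.5 ± 2.67 CPM with DHT (log2 fold change -0.14). GOT2, the mitochondrial aspartate transaminase that can do the same, stood at 266 ± 115 and 277 ± 94.5 CPM. AADAT had 2 and 3 counts over the groups and ACMSD, which diverts the product of HAAO from quinolinate, had 4 and 7.

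NAD can also be made without tryptophan. Of the 8 tested genes listed for NAD synthesis 2 rose, with 0 lowered and 6 not passing, beside 1.96% of all genes raised. The list includes the NAD kinases NADK and NADK2, which use NAD rather than make it. Their median log2 fold change was 0.12, beside -0.05 over all genes. Whether the list as a set differed from other genes was not tested. NADK2, the mitochondrial NAD kinase, ran from 37.3 through 59.3 to 67.6 CPM with vehicle and from 109 through 134 to 174 CPM with DHT. Every DHT library was above every Vehicle library (log2 fold change 1.24, SE 0.16, adjusted p = 5.95e-04 by edgeR). NAMPT, the first enzyme of NAD salvage from nicotinamide, ran from 12.5 through 20.5 to 23.96 CPM with vehicle and from 27.4 through 32.6 to 33.9 CPM with DHT, again without overlap (0.64, SE 0.15, adjusted p = 0.0307 by edgeR). NAMPT did not pass without DHT replicate 1, 3, 4 or 6 or Vehicle replicate 3 or 6 (adjusted p of 0.0640 to 0.0789, log2 fold change 0.62 to 0.65) or with upper-quartile scaling (adjusted p = 0.0567). NMNAT1, of the adenylyl transfer that follows QPRT and NAMPT, did not pass (-0.46, adjusted p = 0.269 by edgeR). It was lower at an unadjusted p under 0.05.

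The remaining amine genes and carriers gave 0 tested members of 10. MAOA, which breaks down serotonin, had at most 0.641 CPM, and the vesicle carrier SLC18A1 had 0 counts. DDC was the only gene of this branch measured above 1 CPM in any library among it, TPH1 and these 10. Of the tetrahydrobiopterin genes, which supply the cofactor of TPH1, 6 of 6 were tested, 0 called by edgeR, DESeq2 or limma-voom and 0 differed at an unadjusted p under 0.05 (median log2 fold change -0.02). SPR stood at 71.4 ± 22.5 CPM and PCBD1 at 69.97 ± 17.5 CPM in Vehicle libraries. Vitamin B6 serves KYNU and DDC and flavin serves KMO, and 0 of 6 genes for their supply were called by edgeR, DESeq2 or limma-voom, with 1 (FLAD1) higher at an unadjusted p under 0.05 (median 0.12). PDXK, which phosphorylates vitamin B6, stood at 154 ± 30.1 CPM in Vehicle libraries.

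Of 8 tested genes of tryptophan transport and tRNA charging 0 were called by edgeR, DESeq2 or limma-voom, and 1 (SLC7A8) was lower at an unadjusted p under 0.05 (median -0.01). SLC7A5, which carries tryptophan and kynurenine across the membrane with SLC3A2, had a log2 fold change of 0.33 (SE 0.42) and ran up to 234 CPM in Vehicle replicate 2. SLC7A5 passed upward without Vehicle replicate 2 (log2 fold change 1.05, SE 0.20, adjusted p = 0.00909 by edgeR) and without both replicate 2 libraries (0.86, SE 0.14, adjusted p = 0.00270 by edgeR). SLC3A2 stood at 209.6 ± 97.8 CPM and WARS1, which charges tRNA with tryptophan, at 154 ± 54.5 CPM in Vehicle libraries.

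Of 6 tested textbook target genes of AHR, 1 rose, beside 1.96% of all genes, 0 fell and 5 did not pass. Their median log2 fold change was 0.51, beside -0.05 over all genes. The estimates of CYP1A1, CYP1A2 and UGT1A6 among them were wide (SE 0.74, 0.68 and 0.57). Whether AHR took part in any of these differences was not tested. TIPARP, an ADP-ribosyl transferase that restrains AHR, ran from 23.5 through 32.3 to 33.95 CPM with vehicle and from 45.9 through 54.5 to 57.7 CPM with DHT. The groups did not overlap (log2 fold change 0.81, SE 0.11, adjusted p = 9.31e-04 by edgeR). CYP1A1, the classical AHR target, ran from 2.95 through 8.42 to 30.7 CPM with vehicle and from 3.87 through 9.24 to 66.2 CPM with DHT, with overlap of the groups (0.74, SE 0.74, adjusted p = 0.839 by edgeR). CYP1B1 stood at 161 ± 42.2 and 188 ± 79.4 CPM and NQO1 at 1129 ± 616 and 929 ± 312 CPM. Of the 4 tested partners of AHR 0 were called by edgeR, DESeq2 or limma-voom and 0 differed at an unadjusted p under 0.05 (median -0.01). HSP90AB1 and PTGES3, of the chaperone complex that holds AHR, had log2 fold changes of 0.03 and 0.00.

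**Figure D4:**
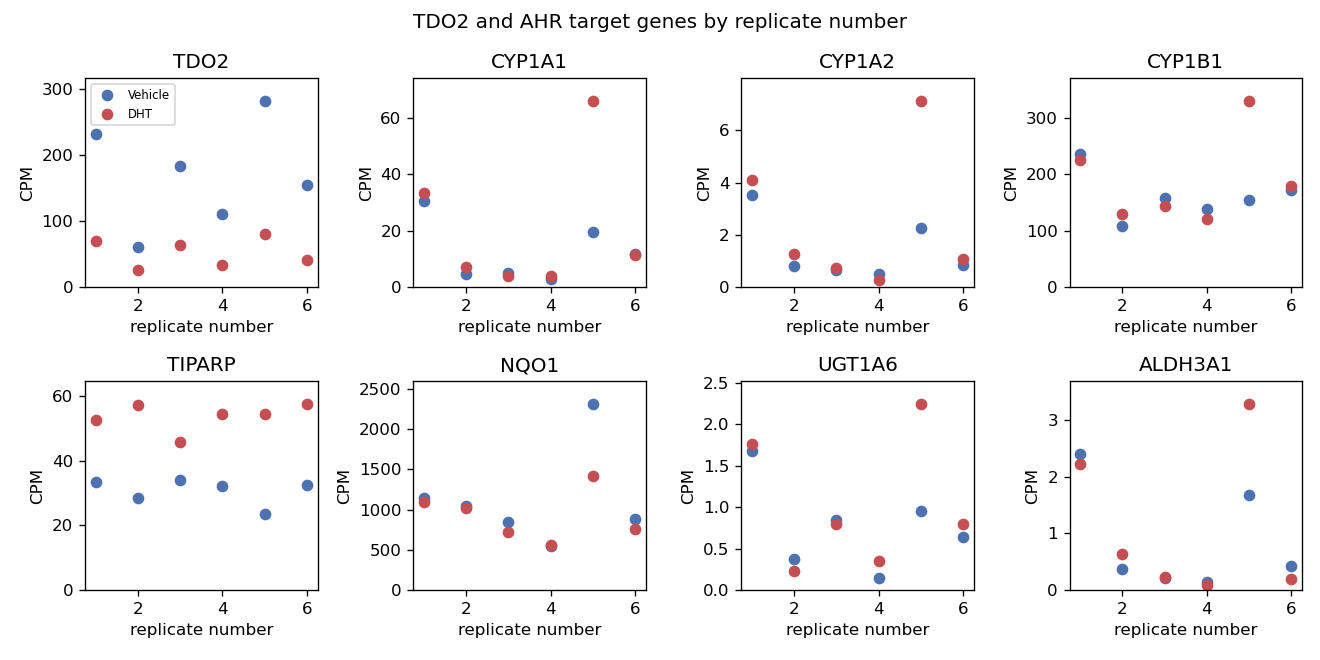
CPM of TDO2 and 7 AHR target genes (vertical axis) by replicate number (horizontal axis) in Vehicle and DHT libraries. CYP1A1 was highest in replicates 1 and 5 of both groups, up to 66.2 CPM, whereas TIPARP was higher in every DHT library than in every Vehicle library.

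Breakdown of the other aromatic amino acids and histidine was set beside that of tryptophan, because TDO2 and TAT are both liver enzymes that steroids are known to induce. Here TAT, which starts tyrosine breakdown, differed in the opposite direction to TDO2. TAT ran from 2.06 through 2.43 to 5.33 CPM with vehicle and from 4.82 through 7.14 to 9.06 CPM with DHT, with overlap through Vehicle replicate 1 (log2 fold change 1.27, SE 0.25, adjusted p = 0.0138 by edgeR). It was the 1 raised gene of 6 tested, with 0 lowered and 5 not passing, beside 1.96% of all genes raised. The median of the 6 was 0.07, beside -0.05 over all genes.

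**Figure D5:**
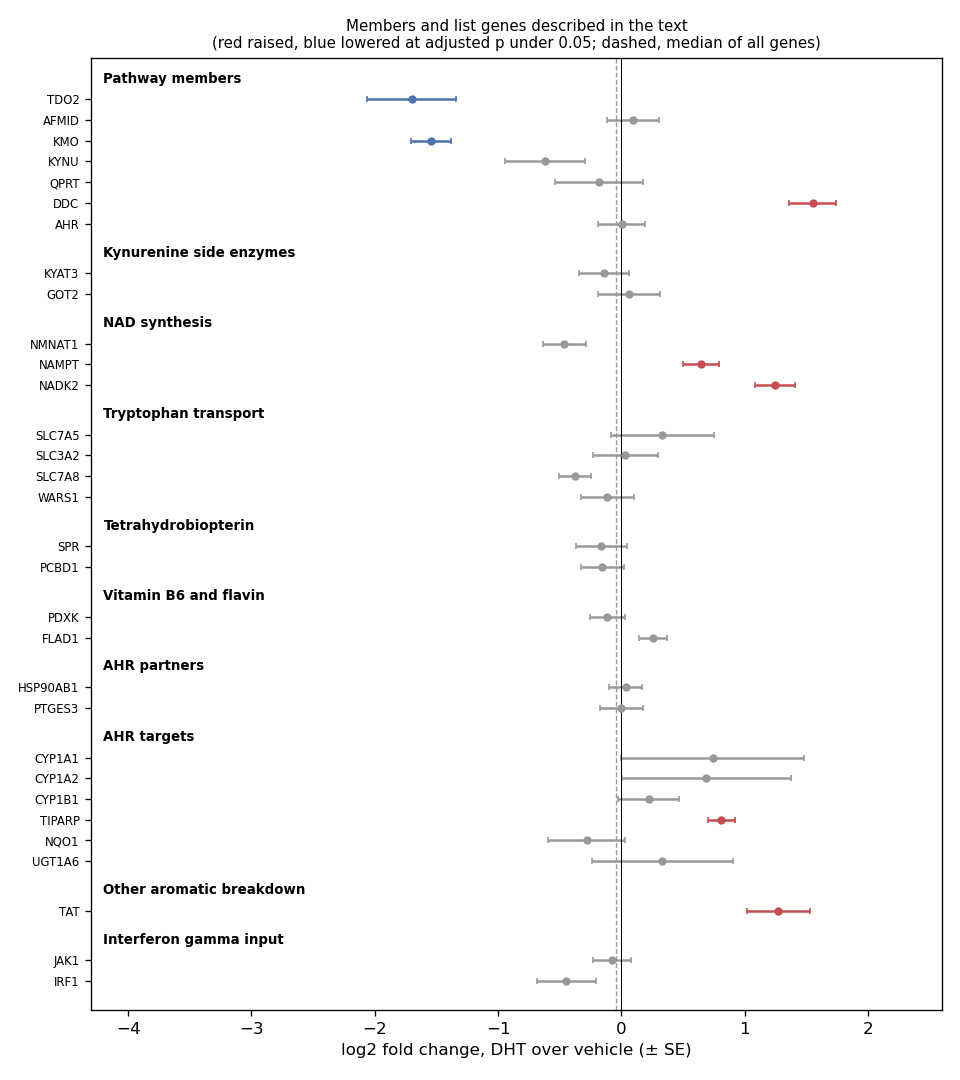
Log2 fold change, DHT over Vehicle (horizontal), with its SE for the 7 tested members and the tested list genes described here; red passed upward and blue downward at an adjusted p under 0.05, and the dashed line is the median of all genes at -0.05. TDO2 (-1.70) and KMO (-1.55) lie to the left, and DDC (1.55), TAT, NADK2, TIPARP and NAMPT to the right.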

How the data were processed

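RNA of 6 Vehicle and 6 DHT libraries was made from 1 µg each and read as single 40 bp reads, per the labels' protocols. The authors deposited estimated counts, and the submitters' processing notes name STAR, featureCounts and GRCh38. Their versions, options and use of strand were not stated in any source used here. Between 39.6% and 46.7% of nonzero values were not whole (tolerance 0.005), so the test planned for counts was run on rounded values. A record broken over 3 lines was left out, leaving 60670 genes, 60400 with a symbol. Genes that share sequence or overlap are uncertain with such short reads. The authors also deposited log2 fold changes, mean log2 CPM and p-values, raw and adjusted, of 14559 genes, whose model no source used here states.

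Low genes were removed with filterByExpr, totals were TMM-scaled, and groups were compared in edgeR 4.0.16 (R 4.3.3) by the quasi-likelihood F-test with group as the only term and Benjamini-Hochberg adjustment. Each SE was obtained by dividing the absolute log2 fold change by the root of its F. On simulated data the script was tested for known changes. CPM are rounded counts over TMM-scaled totals, and log2 CPM for relations between genes used a pseudocount of 2 counts. TPM used exon lengths of the counts table. Alternatives used limma 3.58.1 (voom), DESeq2 1.42.0, other scalings, filters and thresholds, the replicate block, and libraries left out.

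Members, lists, rules and alternatives were chosen with earlier results of these data known. Named genes were all members, called genes of each list (up to 3 in each direction) or else its 2 most abundant, neighbours and overlapping genes, and the 5 most alike in pattern with mean CPM of at least 1 and a symbol. IDO2, AADAT, ACMSD, TPH2, MAOA, SLC18A1, IRF1, NMNAT1, SLC7A8, FLAD1 and the other AHR targets were added after their values were seen. Promoter windows came from RefSeq (GRCh38.p14), and 9 of 10 members, all but IDO1, had an entry. For TPH1 the bases after the start were not found in its transcripts. Some marker and list genes are not reported here by name, but stay in the counts of their lists.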

Additional observations from a re-analysis of the deposited data

Results flagged for a closer look

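Among the members, 17 sets of 6 libraries that were not all at 0 were checked for 1 library lying far from the rest, where chance alone would single out about 1 in 20. KMO in Vehicle libraries was highest in replicate 5, at 111 CPM, with a gap to the next library of 0.661 of the whole range. QPRT was highest in replicate 2 of both groups, at 57.5 CPM in Vehicle (gap 0.814 of the range) and 47.4 CPM with DHT (gap 0.751). KMO without Vehicle replicate 5 had a log2 fold change of -1.42.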

How the results depend on the processing

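Of 16355 genes, 464 were called, and the count was 793 with DESeq2, 920 without both replicate 2 libraries, 195 at an adjusted p under 0.01 and between 278 and 619 with single libraries left out. It fell by over 1.5 times without Vehicle replicate 3 (306) or without DHT replicate 1 (278), 3 (282), 4 (301) or 6 (280). The number of called members was 2 to 3 and of called list genes 3 to 5 with single libraries left out, and the latter was 2 at an adjusted p under 0.01, where TDO2, NAMPT and TAT did not pass. Over 22 alternatives the log2 fold change ran from -1.87 to -1.50 for TDO2, from -1.65 to -1.42 for KMO and from 1.47 to 1.76 for DDC, and KMO, DDC, NADK2 and TIPARP passed in each. With the other gene lengths, scaled over only the genes of the authors' table, the levels were 208 TPM for TDO2, 62.7 TPM for KMO and 25.3 TPM for AFMID. For TDO2 against KMO, r ran from 0.77 to 0.86 in Vehicle and from 0.65 to 0.86 in DHT libraries with single libraries left out.

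With the replicate block 1286 genes were called, 464 of them shared with the fit without it, and the block changed no call among the members. Among list genes it added SLC7A8 as lowered (log2 fold change -0.39, adjusted p = 0.0271 by edgeR), for 5 called, and changed no other call. Same-numbered libraries did not deviate together in every case: the correlation was over 0.1 for 5 of 6 numbers and -0.24 for replicate 5, and 3 of 6 Vehicle libraries correlated best with their own number. The cause was not tested. Levels under about 3 counts per group, as for IDO1 and TPH2, are limited by depth.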

Other observations

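Several AHR targets were high in the same replicate numbers of both groups, which was noticed after their values were seen. CYP1A1 stood at 30.7 and 19.5 CPM in Vehicle replicates 1 and 5 and at 2.95 to 11.7 CPM in the other Vehicle libraries. In DHT libraries it stood at 33.3 and 66.2 CPM in replicates 1 and 5 and at 3.87 to 11.5 CPM in the others. CYP1A2, which can share reads with CYP1A1, and ALDH3A1 were also highest in replicates 1 and 5 of both groups, ALDH3A1 at 2.40 and 1.68 CPM with vehicle and 2.23 and 3.29 CPM with DHT. TIPARP did not share this pattern, with its lowest Vehicle value, 23.5 CPM, in replicate 5.

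TDO2 was also highest in replicates 1 and 5 of both groups. Its relation to the 6 tested AHR targets was computed within each group, 12 relations in all, on log2 CPM over 6 libraries. These relations were chosen after the shared pattern was seen in the same libraries. Their p-values do not allow for that choice. For CYP1A1, Pearson's r was 0.72 in Vehicle (exact permutation p = 0.0986, adjusted 0.237) and 0.65 in DHT libraries (exact permutation p = 0.183, adjusted 0.275), and Spearman's rho was 0.83 and 0.60 (exact permutation p = 0.0583 and 0.242, adjusted 0.175 and 0.264). Without the 2 libraries farthest from the median of TDO2, r was 0.82 in Vehicle and 0.49 in DHT libraries. Of the 12 relations, only that with UGT1A6 in DHT libraries passed (r = 0.95, exact permutation p = 0.00278, adjusted 0.0333; rho = 1.0, exact permutation p = 0.00278, adjusted 0.0333; r = 0.86 without the 2 libraries). UGT1A6 rested on 62.5 Vehicle and 84 DHT counts and shares exons with other UGT1A genes. In Vehicle libraries the same relation did not pass (r = 0.74, exact permutation p = 0.0972, adjusted 0.237; rho = 0.89, exact permutation p = 0.0333, adjusted 0.133).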
